A study of Homo sapiens with 8 samples.

Results

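The genes described here are 10 members of the Notch pathway, among them 3 receptors (NOTCH1, NOTCH2 and NOTCH3), 3 ligands (JAG1, JAG2 and DLL1), 3 transcriptional targets of the HES and HEY family (HES1, HES4 and HEY1) and the feedback inhibitor NRARP. They were taken as a list of names, and all 10 are among the 25369 gene symbols of the deposited table. RNA-seq was performed on MCF10A cells, an established and spontaneously immortalized human mammary epithelial line, after 7 days of encapsulation in 4 kinds of hydrogel. Soft IPNs and stiff IPNs are interpenetrating networks of alginate and reconstituted basement membrane (rBM), and calcium crosslinks the alginate of the stiff IPNs only. Soft col:rBM gels combine collagen-1 (col-1) with rBM. The labels name stiff col gels for col-1 only, and whether these also held rBM was not settled from the sources used. The comparison of the stiff gels thus varies col-1, calcium and alginate together, and perhaps rBM. By the labels, the comparison of stiff col with soft col:rBM varies the protein content along with the stiffness. All 8 libraries, 2 per gel, came from this 1 cell line, and the labels name no drug and no gene edit. The study describes 2 independent trials, so replicates 1 and 2 of each gel are called trial 1 and trial 2. The labels give replicate numbers only, and that the same number marks the same trial in every gel was assumed.

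Notch receptors are transmembrane proteins that are activated by a ligand on a neighbouring cell. Binding of a Jagged or Delta ligand exposes the receptor to cleavage by ADAM10 and then by the gamma-secretase complex, which frees the intracellular domain. That domain enters the nucleus, joins the DNA-binding protein RBPJ and a Mastermind coactivator, and switches on genes such as those of the HES and HEY families, which encode transcriptional repressors. NRARP is itself a target and limits the pathway by acting on the complex of the intracellular domain. In the mammary gland the pathway is known for its part in luminal cell fate, and its receptors have been linked to breast cancer.

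The libraries held an estimated 13065615 to 18587739 reads on genes, inferred from the rounding of the values, and the values below are normalized counts, in which every read of a library is worth the same amount and 3 reads correspond to between 2.41 and 3.73 normalized counts. Genes of basal and general epithelial cells were well expressed, with a summed level of 46962 to 135378 normalized counts over 7 markers and all 7 above the minimum for testing. Of 5 luminal markers 4 passed that minimum, with a summed level of 7321 to 13330. Of 5 fibroblast markers 2 passed that minimum, with a summed level of 774 to 1463, and COL1A2 was at 0 in every library. Of 4 leukocyte markers 2 passed it, with CD68 making up most of a summed level of 518 to 5169 and PTPRC at 0 in every library. Of 4 endothelial markers 2 passed it, with a summed level of 39 to 270. These are bulk samples, in which fewer cells of a type and less RNA per cell cannot be told apart.

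The promoters of 8 of the 10 members were taken by symbol from RefSeq (GRCh38.p14). They were searched from 250 bases before to 50 after the gene start for TGGGAA, the core letters bound by RBPJ, on both strands. The promoters of HEY1 and DLL1 were not searched, so whether they hold the motif is not known here. The motif was in 2 of the 8 searched, HES1 and HES4, and in 24.0% of the 35116 promoters of this length that were searched. Both are shown because their genes gave different patterns across the gels, as described further on. The 120 bases before the start are printed 5′ to 3′ on the gene's strand, with the motif in capitals, at chr3:194136028-194136147 on the plus strand for HES1 and at chr1:1000098-1000217 on the minus strand for HES4.
HES1: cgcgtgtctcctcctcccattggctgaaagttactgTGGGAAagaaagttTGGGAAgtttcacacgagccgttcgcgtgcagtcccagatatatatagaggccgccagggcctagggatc
HES4: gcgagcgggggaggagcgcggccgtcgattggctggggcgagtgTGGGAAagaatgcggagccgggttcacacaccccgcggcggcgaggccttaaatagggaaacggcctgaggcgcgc
HES1 holds 2 copies, which begin 84 and 70 bases before the start and point the same way, and 3.80% of the promoters searched hold 2 or more. HES4 holds 1 copy, which begins 76 bases before the start. The match describes the letters only and says nothing of binding in these cells.

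Among the 10 members, HES1, NOTCH2 and the Jagged ligands had the highest levels per length. HES1 had a median of 238 normalized counts per kb of merged exons over the 8 libraries, NOTCH2 had 171, JAG1 had 123 and JAG2 had 115 on the same scale. NOTCH1 stood at 87.9 normalized counts per kb, HES4 at 36.7, NOTCH3 at 34.1 and HEY1 at 14.6. The order of the middle genes is not sharp, since the ranges of JAG1 (73.7 to 216), JAG2 (67.7 to 132) and NOTCH1 (45.3 to 108) normalized counts per kb overlapped over the libraries. HEY1 depended on the length used, with 36.4 normalized counts per kb of its canonical transcript. NRARP and DLL1 were the lowest, at 4.35 and 0.262 normalized counts per kb of merged exons. DLL1, a Delta ligand on chr6:170591294-170615653 (hg19), reached 1 and 5 normalized counts in the soft IPN pair of libraries (trial 1, then trial 2, as in all such pairs here), 2 and 0 in the stiff IPN pair, 1 and 1 in the soft col:rBM pair and 0 and 2 in the stiff col pair. An estimated 4 reads at most were counted for it in any library, so it was not tested and a difference between gels was not detectable at this depth. DLL1 overlaps FAM120B on the opposite strand over 15863 bases, introns included. The kit does not mark strand, so reads of the 2 genes cannot be told apart where their exons overlap, the extent of which was not determined.

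**Figure D1:**
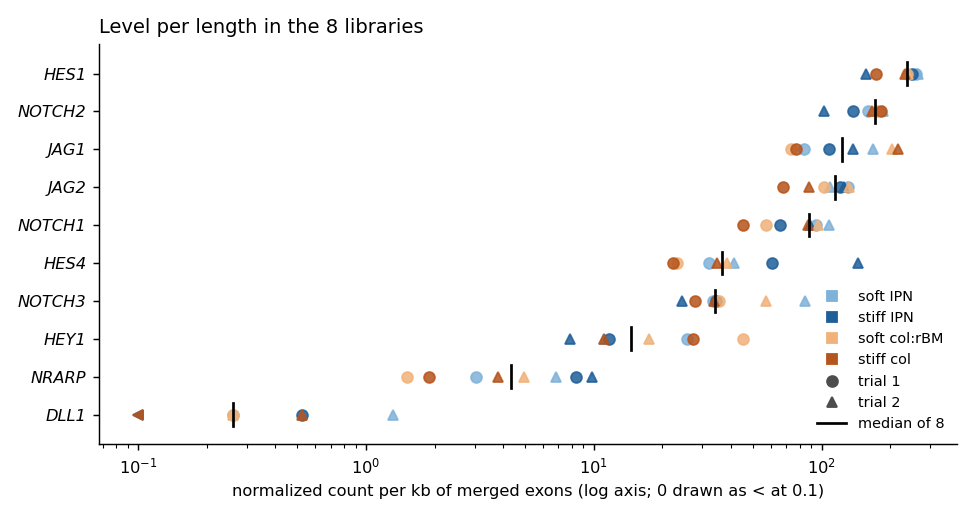
Normalized counts per kb of merged exons (log axis) for the 10 members in each of the 8 libraries, with gels as colours, trials as circles and triangles and the median of 8 as a bar. HES1 and NOTCH2 have the highest medians, at 238 and 171, and DLL1 the lowest, at 0.262, with its libraries at 0 drawn at the left edge.

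The receptors were lower in stiff IPNs than in soft IPNs in most pairs of libraries of the same trial. NOTCH2 (chr1:120454176-120643366, hg19) reached 2668 and 3114 normalized counts in the soft IPN pair, 2299 and 1716 in the stiff IPN pair, 2945 and 2928 in the soft col:rBM pair and 3065 and 2801 in the stiff col pair. Both stiff IPN libraries were below all 6 others. On the scale of log2(normalized count + 1) its difference was -0.54 ± 0.20 (SE, n = 2 and 2) for stiff against soft IPNs and 0.56 ± 0.20 for stiff col against stiff IPNs, with limma's adjusted p at 0.511 and 0.679. Between the collagen gels NOTCH2 differed by -0.00, with a 95% interval from -0.48 to 0.47. NOTCH2NL, a near-identical partial copy of NOTCH2, had 578 to 1554 normalized counts, and reads that fitted both genes were removed as multimapped, so the level of NOTCH2 is uncertain.

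NOTCH1 (chr9:139388885-139440500, hg19) reached 1179 and 1352 normalized counts in the soft IPN pair, 825 and 1116 in the stiff IPN pair, 716 and 1206 in the soft col:rBM pair and 568 and 1087 in the stiff col pair. Soft IPNs had the highest level and did not overlap with stiff IPNs, while the libraries of the other 3 gels overlapped one another. The log2 difference of stiff from soft IPNs was -0.40 ± 0.37 (SE, limma adjusted p = 0.743) and ranged from -0.61 without the stiff IPN library of trial 2 to -0.18 without that of trial 1. NOTCH3 (chr19:15269849-15311806, hg19) reached 313 and 798 normalized counts in the soft IPN pair, 323 and 229 in the stiff IPN pair, 333 and 536 in the soft col:rBM pair and 262 and 318 in the stiff col pair. Its highest value came from a single soft IPN library, and without that library the log2 difference between stiff and soft IPNs moved from -0.88 to -0.20. In trial 1 alone NOTCH3 differed by 0.05 between these gels and in trial 2 by -1.80.

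The Jagged ligands differed from each other in where their variation lay. JAG2 (chr14:105607319-105635161, hg19) reached 835 and 694 normalized counts in the soft IPN pair, 774 and 802 in the stiff IPN pair, 657 and 844 in the soft col:rBM pair and 433 and 561 in the stiff col pair. Both stiff col libraries were below the 6 others. The log2 difference of stiff col was -0.68 ± 0.22 (SE) from stiff IPNs and -0.59 ± 0.22 from soft col:rBM, with limma adjusted p at 0.604 and 1. The difference from soft col:rBM was nearly equal in the 2 trials, at -0.60 and -0.59. Soft and stiff IPNs had JAG2 levels 0.05 apart (95% interval -0.47 to 0.57). A long non-coding RNA gene that is not in the table overlaps 16631 bases of JAG2 on the same strand, introns included. JAG2 has 6396 bases of merged exons, and how much of the overlap lies in them was not determined. Reads from that gene that fell on exons of JAG2 could be counted with JAG2.

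JAG1 (chr20:10618332-10654647, hg19) reached 780 and 1569 normalized counts in the soft IPN pair, 1000 and 1283 in the stiff IPN pair, 685 and 1894 in the soft col:rBM pair and 719 and 2008 in the stiff col pair. The 4 libraries of trial 2 lay above the 4 of trial 1, and the gels overlapped throughout. The log2 differences of JAG1 between gels were between 0.03 and 0.09 in the 4 comparisons, each with an SE of 0.63. The fit shares 1 spread over all 4 gels, which includes the shift between the trials. On that spread the 95% interval for stiff against soft IPNs reached from -1.44 to 1.503. With the trial as a block the SE was 0.26 and the interval reached from -0.56 to 0.63.

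**Figure D2:**
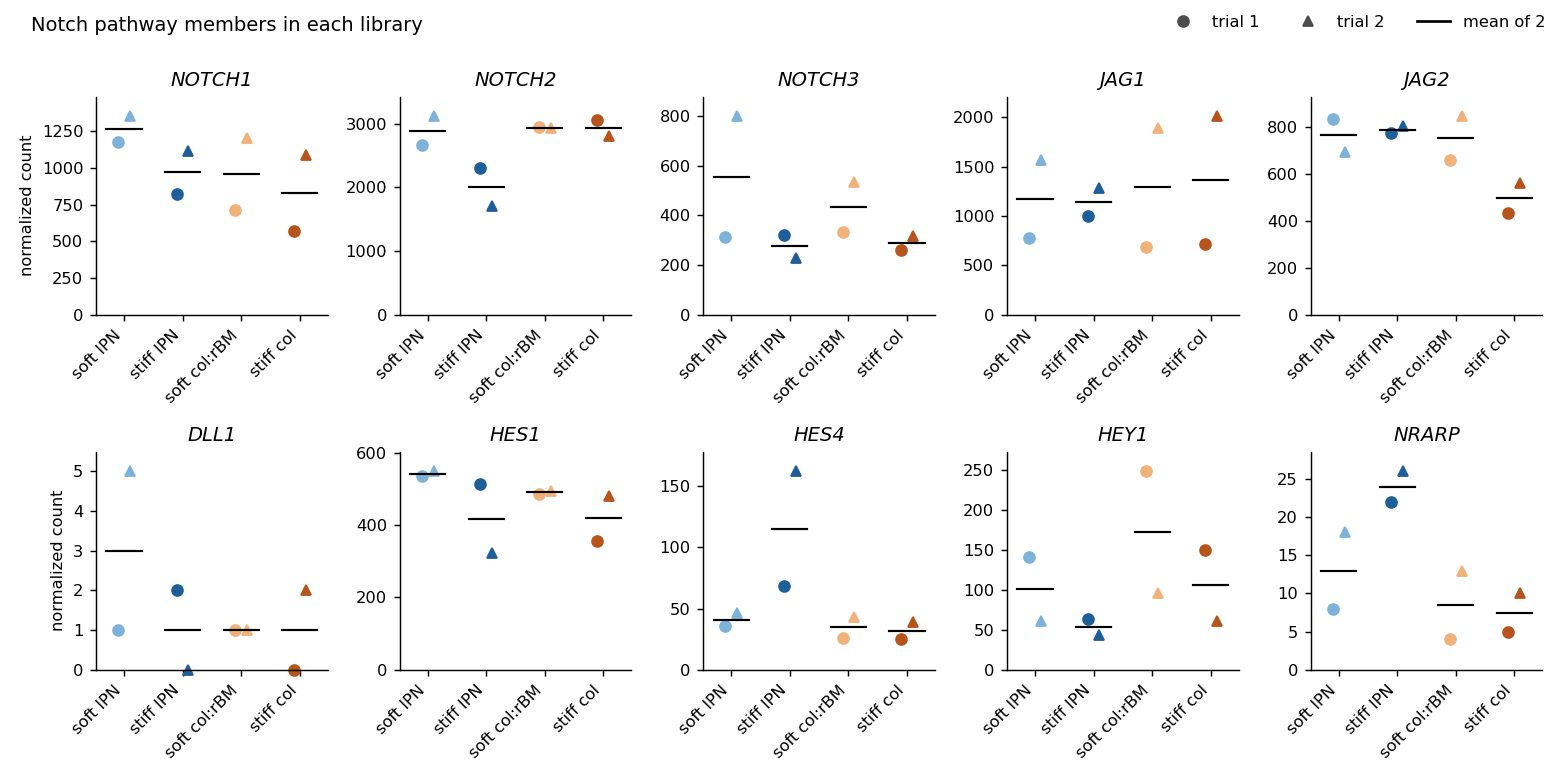
Normalized counts (linear axes from 0) of the 10 members in the 4 gels, with trial 1 as circles, trial 2 as triangles and the mean of 2 libraries as a bar. HES4 and NRARP are highest in both stiff IPN libraries, JAG2 is lowest in both stiff col libraries, and JAG1 separates by trial.

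Among the target genes, HES4 stood highest in stiff IPNs. HES4 (chr1:934342-935552, hg19), a repressor of the HES family, reached 36 and 46 normalized counts in the soft IPN pair, 68 and 162 in the stiff IPN pair, 26 and 43 in the soft col:rBM pair and 25 and 39 in the stiff col pair. Both stiff IPN libraries were above the 6 others, which spanned 25 to 46, but the 2 also differed from each other, with a mean of 115 ± 66.5 (SD, n = 2). Its log2 difference was 1.35 ± 0.52 (SE) for stiff against soft IPNs and -1.72 ± 0.52 for stiff col against stiff IPNs, at limma adjusted p of 0.515 and 0.580. With the trial as a block in the fit the adjusted p was 0.0574 for the first and 0.0376 for the latter, in which HES4 thus fell in stiff col. Both comparisons use the same 2 stiff IPN libraries. That call was kept without the stiff IPN or the soft col:rBM library of trial 1 and lost in the other 6 of 8 fits that left out a library, over which the difference ranged from -2.06 to -1.38 and the adjusted p from 0.00818 to 0.260. The collagen gels differed by -0.10 (95% interval -1.31 to 1.11).

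Some basal and general epithelial markers, and CD68 of the leukocyte list, moved with the same gels. In the fit with the trial block, KRT17 was 1.88 higher on the log2 scale in stiff than in soft IPNs (limma adjusted p = 0.00669) and differed by -2.57 in stiff col from stiff IPNs (adjusted p = 0.00302). CDH1 was higher in stiff IPNs in both comparisons and ITGB4 was lower in stiff than in soft IPNs. With the block 3 of the 7 markers were thus called between the IPNs, against 3.82% of all genes. In stiff col against stiff IPNs 4 of the 7 were called, against 2.47% of all genes. These were CDH1, EPCAM, KRT14 and KRT17, all lower in stiff col. Without the block 0% of all genes were called in either comparison, and KRT17 had limma adjusted p of 0.569 and 0.707. The summed level of the 7 was 65559 and 135378 in stiff IPNs against 46962 to 111550 in the other gels. CD68, of the leukocyte list, reached 4222 and 2092 normalized counts in the soft IPN pair, 1220 and 324 in the stiff IPN pair, 5017 and 1348 in the soft col:rBM pair and 4360 and 990 in the stiff col pair. With the trial block CD68 differed by -2.24 in stiff from soft IPNs (limma adjusted p = 0.0126) and by 1.72 in stiff col from stiff IPNs (adjusted p = 0.0187). Without the block these limma adjusted p were 0.531 and 0.818. CD14, the other leukocyte marker tested, went the other way in both comparisons, at 0.53 and -0.88, and was not called. The luminal markers tested were not called in either comparison. The part of these markers in the values of HES4 was not tested.

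HES1 (chr3:193853937-193856521, hg19), the best known effector of the family, was highest in soft IPNs. It reached 535 and 548 normalized counts in the soft IPN pair, 512 and 323 in the stiff IPN pair, 486 and 494 in the soft col:rBM pair and 356 and 480 in the stiff col pair. Both soft IPN libraries were above the 6 others, and the lowest value was that of a stiff IPN library. The log2 difference of HES1 was -0.41 ± 0.27 (SE) for stiff against soft IPNs and -0.24 ± 0.27 for stiff col against soft col:rBM, at limma adjusted p of 0.623 and 1. Without the stiff IPN library of trial 1 the first was -0.74 and without that of trial 2 it was -0.081, and the latter was -0.46 without the stiff col library of trial 2 and -0.030 without that of trial 1.

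HEY1 (chr8:80674606-80680092, hg19), a related repressor, reached 141 and 61 normalized counts in the soft IPN pair, 64 and 43 in the stiff IPN pair, 248 and 96 in the soft col:rBM pair and 150 and 61 in the stiff col pair. Trial 1 was above trial 2 in every gel, and within each trial stiff IPNs were lowest and soft col:rBM highest. The log2 difference of HEY1 was -0.81 ± 0.65 (SE) for stiff against soft IPNs, 0.86 for stiff col against stiff IPNs, -0.68 for stiff col against soft col:rBM and 0.73 for soft col:rBM against soft IPNs. With the trial as a block the SE fell from 0.65 to 0.28, and the lowest limma adjusted p of these 4 was 0.126. The difference between the IPNs was -1.41 without the soft IPN library of trial 2 and -0.21 without that of trial 1, and that between the collagen gels was -1.36 and -0.0036 without the soft col:rBM library of trial 2 and of trial 1.

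NRARP (chr9:140194083-140196723, hg19), the feedback inhibitor, reached 8 and 18 normalized counts in the soft IPN pair, 22 and 26 in the stiff IPN pair, 4 and 13 in the soft col:rBM pair and 5 and 10 in the stiff col pair. Stiff IPNs were above the 6 other libraries, as for HES4. These values rest on an estimated 3 to 24 reads per library, and the log2 differences carry an SE of 0.69. NRARP differed by 0.93 for stiff against soft IPNs and by -1.62 for stiff col against stiff IPNs, at limma adjusted p of 0.672 and 0.785 without and 0.260 and 0.121 with the trial block. The first was 0.39 without the soft IPN library of trial 1 and 1.47 without that of trial 2, and the latter ranged from -2.05 to -1.18 over the left-out libraries.

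**Figure D3:**
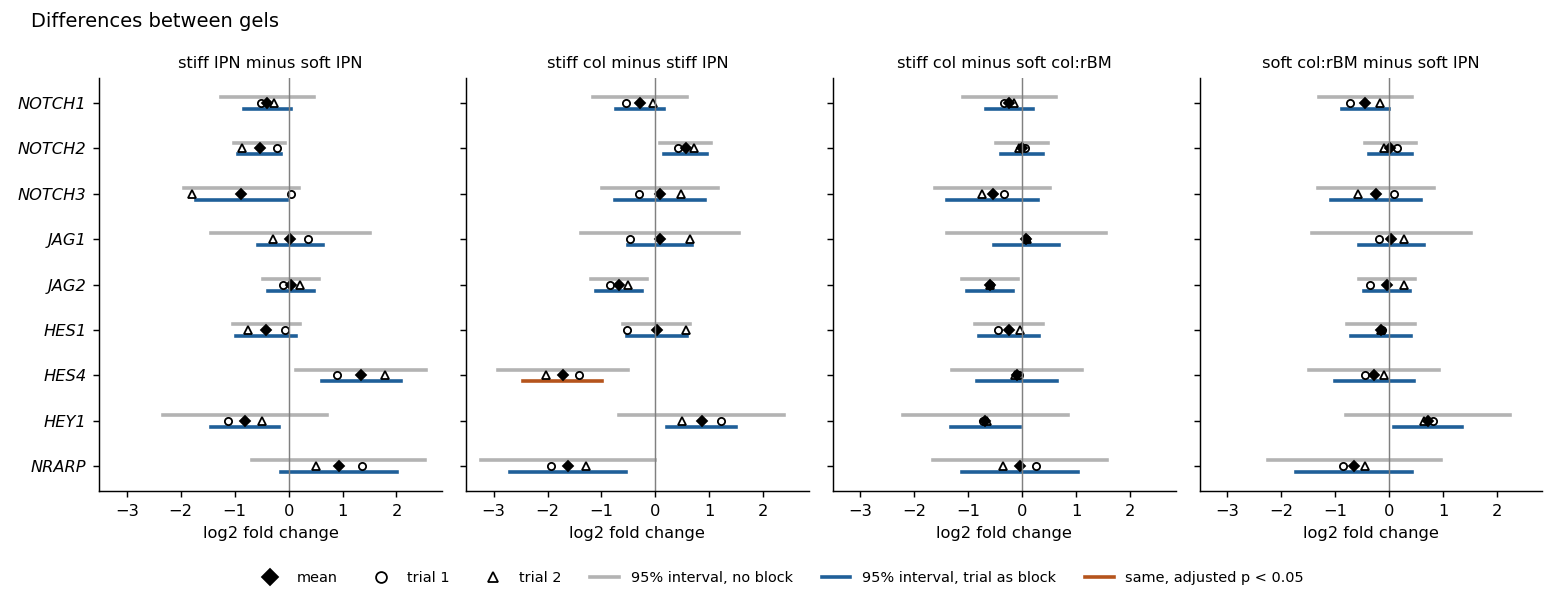
Log2 fold changes of the 9 members tested in 4 comparisons of gels, with the mean as a diamond, each trial's own difference as an open symbol and 95% intervals without (grey) and with (blue or orange) the trial as a block. The interval drawn in orange, HES4 in stiff col minus stiff IPN, is the member called at an adjusted p under 0.05.

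Between soft and stiff IPNs, 5 of the 9 members tested had libraries that did not overlap, with HES4 and NRARP higher and HES1, NOTCH1 and NOTCH2 lower in stiff IPNs, where 41.9% of all 13369 genes tested did not overlap. Limma called 0 of 9 without the block, as it called 0% of all genes, and 2 of 9 had an unadjusted p under 0.05 against 9.31% of all genes. With the block it again called 0 of 9, against 3.82% of all genes. The median log2 difference was -0.40 over the 9 members and -0.01 over all genes. The count depended on the stiff IPN libraries, since without the stiff IPN library of trial 1 the fit with the block called 4 members against 20.1% of all genes. These were HES4 higher at 1.69 and HES1, NOTCH2 and NOTCH3 lower at -0.82, -0.76 and -1.51, and without that of trial 2 it called 1 member, HEY1, at -1.17, against 8.06% of all genes. In these fits the stiff IPN arm holds 1 library, which is assumed to vary like the libraries of the other gels.

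In stiff col against stiff IPNs, 4 of 9 members did not overlap, NOTCH2 higher and HES4, JAG2 and NRARP lower in stiff col, while 30.9% of all genes did not overlap. Limma called 0 of 9 without the block and 0% of all genes, and 4 of 9 had an unadjusted p under 0.05 against 6.27% of all genes. With the block it called 1 of 9, HES4, against 2.47% of all genes. The median was 0.02 over the members and 0.00 over all genes. Without the stiff IPN library of trial 1 the fit with the block called 2 members, HES4 and NOTCH2, against 16.5% of all genes, and without that of trial 2 it called HEY1 in place of HES4, against 5.25%, with the same assumption about the lone stiff IPN library.

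Between the collagen gels, 3 of 9 members did not overlap, and HES1, JAG2 and NOTCH3 were lower in stiff col, where 19.0% of all genes did not overlap. Limma called 0 of 9 and 0% of all genes with or without the block, and 1 of 9, JAG2, had an unadjusted p under 0.05 against 1.05% of all genes. The median was -0.24 over the members and -0.00 over all genes. A fit of these 4 libraries alone with the block called 3 members lower in stiff col, JAG2 at -0.59, NOTCH3 at -0.55 and HEY1 at -0.68, with adjusted p of 0.000677, 0.0104 and 0.0157, against 7.47% of all genes. Between the soft gels, HES1 alone of 9 members did not overlap, at -0.14 in soft col:rBM, against 20.7% of all genes. Limma called 0 of 9 with or without the block, against 0% of all genes without it and 0.0224% with it, and 0 of 9 had an unadjusted p under 0.05. The medians there were -0.14 over the members and -0.00 over all genes.

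Whether stiffness acted alike in the IPNs and the collagen gels was asked with the difference of the 2 differences. Limma called 0 of 9 members, with none at an unadjusted p under 0.05, and 0% of all genes without the block, and 0 of 9 against 0.0150% of all genes with it. The widest was HES4, at -1.44 ± 0.73 (SE), with a 95% interval from -3.15 to 0.27 and an adjusted p of 1 without and 0.365 with the block. NRARP had -0.97 and JAG2 -0.64 in the same direction, and the other 6 members lay between 0.04 and 0.53.

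Several members differed between the trials. In a fit with gel and trial, limma called 4 of 9 members between trial 2 and trial 1, against 27.1% of all genes, and JAG1 alone of 9 had no overlap between the trials, against 19.8% of all genes. JAG1 had between 685 and 1000 normalized counts in trial 1 and between 1283 and 2008 in trial 2, a log2 difference of 1.08 ± 0.18 (SE, adjusted p = 0.00706, higher in 4 of 4 gels). HEY1 had between 64 and 248 normalized counts in trial 1 and between 43 and 96 in trial 2, a difference of -1.10 ± 0.19 (adjusted p = 0.00777, lower in 4 of 4 gels). JAG1 and HEY1 thus moved in opposite directions between the trials in each gel. The difference was smallest in stiff IPNs for both, at 0.36 for JAG1 and -0.56 for HEY1. HES4 and NRARP, which are targets as well, moved in the same direction as JAG1.

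NOTCH1 and HES4 were also higher in trial 2 in 4 of 4 gels, at 0.58 ± 0.13 and 0.73 ± 0.23 (SE) with limma adjusted p of 0.0182 and 0.0461. Leaving out either library of a gel gives the same trial difference, since the gel's other library alone holds no difference between trials. The call of HES4 was lost whichever library was left out. That of NOTCH1 was lost when a soft col:rBM or stiff col library was left out, which left 2 members called. NRARP was higher in 4 of 4 gels at 0.92 ± 0.33 (SE), with an adjusted p of 0.0732. Without either stiff IPN library NRARP was called, at 1.15 with a lowest adjusted p of 0.0306, and so was NOTCH3, at 0.77 with a lowest adjusted p of 0.0106. With all 8 libraries NOTCH3 (0.45), JAG2 (0.13), NOTCH2 (-0.08) and HES1 (-0.04) did not pass the test. Basal markers moved with the trials as well, since KRT5, KRT14, KRT17 and TP63 were higher in trial 2 by 1.35, 1.94, 1.80 and 0.97 on the log2 scale, and ITGB4 was lower at -0.91. The summed leukocyte markers spanned 1633 to 5169 normalized counts in trial 1 and 518 to 2203 in trial 2, so they overlapped. The summed endothelial markers spanned 74 to 270 in trial 1 and 39 to 73 in trial 2. CD68, CD14 and KDR were lower in trial 2, at -1.74, -1.17 and -2.20. PECAM1, the other endothelial marker tested, went the other way at 0.58 and was not called. The part of all these markers in the members' differences was not tested. Since the replicate number is the only label of a trial, handling, sequencing and biology cannot be told apart.

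**Figure D4:**
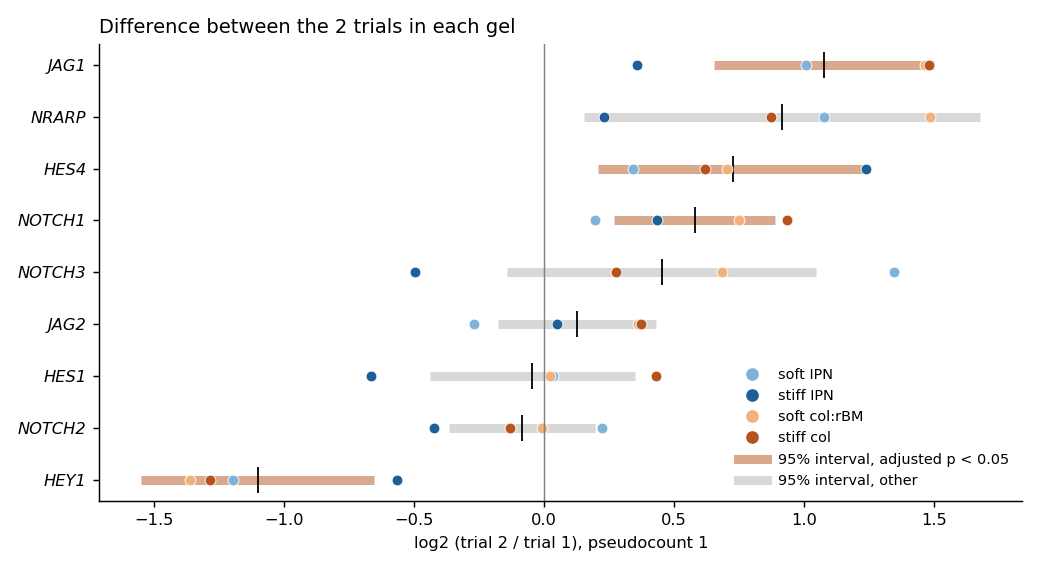
Log2 ratio of trial 2 to trial 1 (pseudocount 1) in each of the 4 gels for the 9 members tested, with the mean as a tick and its 95% interval as a bar, coloured where the adjusted p was under 0.05. JAG1 is above 0 and HEY1 below 0 in 4 of 4 gels, and NOTCH2, HES1 and JAG2 lie on both sides of 0.

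Another 56 genes of the pathway, from other ligands to receptor processing and nuclear cofactors, were examined as a list, of which 46 could be tested. Limma called 0 of 46 in each comparison of gels without the block. With it, 2 of 46 were called between the IPNs and 1 of 46 in stiff col against stiff IPNs, and none in the other comparisons, against 3.82% and 2.47% of all genes in these comparisons of IPNs and of stiff gels. The list medians in these comparisons were -0.11 and 0.13. HES2, a further repressor of the HES family, reached 234 and 435 normalized counts in the soft IPN pair, 740 and 1407 in the stiff IPN pair, 175 and 366 in the soft col:rBM pair and 66 and 342 in the stiff col pair. Both stiff IPN libraries were above the 6 others, as for HES4 and NRARP. HES2 was 1.67 higher in stiff than in soft IPNs (limma adjusted p = 0.543 without and 0.0409 with the block) and differed by -2.75 in stiff col from stiff IPNs (0.540 and 0.0112). The latter call was kept in 8 of 8 fits with the block that left out a library. The former was lost without either soft IPN library, at 1.95 and 1.40 with adjusted p of 0.0963 and 0.486.

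The other call with the block between the IPNs was NCSTN, lower in stiff IPNs. This gene, which encodes nicastrin of the gamma-secretase complex, reached 4222 and 3958 normalized counts in the soft IPN pair and 2611 and 1843 in the stiff IPN pair, a log2 difference of -0.90 (limma adjusted p = 0.0306 with the block, and 0.351 without the soft IPN library of trial 2, the 1 of 8 whose absence ended the call). The largest differences among those not called were MAML3, a Mastermind coactivator, at -1.05 between the IPNs, and HES6 at -1.11 in stiff col against stiff IPNs. Between the collagen gels HES2 and DLK2 differed by -0.75 and -0.71, and between the soft gels HES7 differed by -1.5 and LFNG, a glycosyltransferase of the receptors, by 1.23. HES7 was low, at 31 and 17 normalized counts in the soft IPN pair and 11 and 5 in the soft col:rBM pair.

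Between the trials 13 of 46 genes of this list were called, 5 higher and 8 lower in trial 2, beside 27.1% of all genes. The higher ones were HES2 (1.31), LFNG (1.15), POGLUT1 (0.53), PSEN2 (0.49) and KAT2A (0.41). The lower ones were CIR1 (-0.84), ITCH (-0.80), RFNG (-0.74), MAML2 (-0.70), NUMBL (-0.63), DNER (-0.57), APH1B (-0.48) and NCSTN (-0.34). Leaving out either library of a gel gives the same trial difference, so the 8 fits that left out a library hold 4 distinct ones. The calls of HES2, ITCH and MAML2 were kept in 8 of 8 such fits. Those of CIR1 and LFNG were lost in 2 of 8, those of DNER, NUMBL and POGLUT1 in 4, and those of APH1B, KAT2A, NCSTN, PSEN2 and RFNG in 6.

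**Figure D5:**
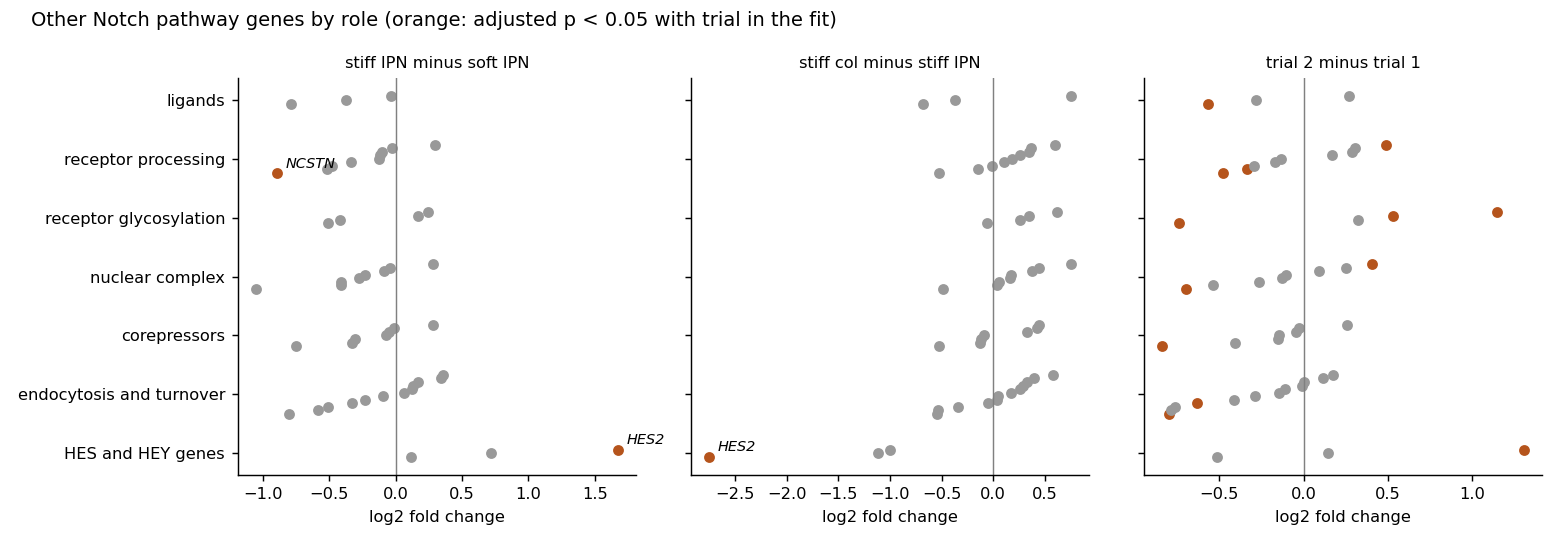
Log2 fold changes of the 46 other pathway genes tested, arranged by role, for stiff IPN minus soft IPN, stiff col minus stiff IPN and trial 2 minus trial 1. Orange points had an adjusted p under 0.05 with the trial in the fit, 2, 1 and 13 genes in that order.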

How the data were processed

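RNA-seq libraries were made with the TruSeq RNA v2 kit, which does not mark strand. The authors trimmed reads with Trim Galore 0.3.3, aligned them to hg19 (Bowtie2 in the methods, TopHat2 2.0.13 in the submitters' processing notes), removed multimapped reads with SAMtools 1.1 and counted genes with HTSeq. What was deposited is a signal, whole numbers from counts that the authors multiplied by 1 factor per library and rounded, called normalized counts here. The annotation used for counting is not given in the sources used here. Reads per library are estimates, since the factors were inferred from which whole numbers occur among the rounded values, and 21 and 30 values in 2 libraries (stiff IPN trial 2 and soft col:rBM trial 1) could not come from the factor inferred. They are lower than the depths after filtering that the methods state. The methods describe paired-end reads, and whether the values count pairs or single reads was not determined, so the difference was not resolved here. Limits of 3 reads cover counting error only, since reads carried no molecular identifiers. Of the symbols, 28 had been turned into dates.

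Genes with at least 10 normalized counts in at least 2 libraries (13369) were fitted as log2(normalized count + 1) with limma 3.58.1 (statmod 1.5.0, R 4.3.3), 1 mean per gel, trend and robust moderation, and Benjamini-Hochberg adjustment over all genes at a threshold of 0.05. A fold change on this scale understates the change of low genes. Fits were run on simulated data, where only the size of the estimated differences was checked. The simulated trial shift of a gene was the same in all gels, so shifts that differ by gel were not covered. P-values measure the spread between these libraries. With 2 libraries against 2, an exact permutation test cannot go below p = 0.333, so none was run. The replicate numbers were taken to pair the libraries, since the study describes independent trials. The shift from replicate 1 to replicate 2 was also correlated, over genes, in each of 6 pairs of gels. Pearson's r ran from 0.278 to 0.819, genes not being independent replicates. It was 0.278 for soft with stiff IPNs, 0.398 for stiff IPNs with stiff col and 0.819 for the collagen gels. Among the gels compared, the 2 pairs with stiff IPNs thus had the lowest r. In them alone did the fit of all gels with the block call named genes. The fit with the replicate block was an alternative, as were rescaling, filters, pseudocounts, the variance model, the gels in the fit and leaving out libraries. Python 3.11.15 with pandas 2.3.3, numpy 2.4.6 and matplotlib 3.10.9 was used for annotation (GENCODE 44 on hg19) and plots.

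The members and lists were chosen with earlier results of these data known. All 10 members are named. Of the other pathway genes, those called in a comparison with or without the block and the 2 with the largest difference are named. A pathway gene left out of the list is not reported here.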

Additional observations from a re-analysis of the deposited data

Results flagged for a closer look

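Of the members and other pathway genes named, 4 had a stiffness effect of opposite sign in the IPNs and in the collagen gels in both trials. The share of all genes tested with this pattern was not determined, so the count has no background to be set against. HES2 and DNER are among the genes named because their differences between the effects were the largest of the other pathway genes. HES4 was higher in stiff than in soft IPNs by 0.90 and 1.79 (log2, trials 1 and 2) and lower in stiff col against soft col:rBM, at -0.05 and -0.14, a difference between the effects of -1.44 (limma adjusted p = 1 without and 0.365 with the replicate block). HES2 gave -2.42 (adjusted p = 1 and 0.181 with the block), DNER, a non-canonical ligand, 0.91 (1 and 0.343) and APH1B 0.53 (1 and 0.509). None of these differences passed the test. The effect of HES4 in the collagen gels rests on 26 and 43 normalized counts in soft col:rBM against 25 and 39 in stiff col.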

How the results depend on the processing

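Each gel had 2 libraries, and that number limits the precision of every difference. The count of members called was 0 in the 5 comparisons between gels under rescaling, other filters, other pseudocounts, no trend or robust moderation and each left-out library. With the replicate block 1 member, HES4, was called in stiff col minus stiff IPN, and no call changed in the other 4. With only the gels compared and the replicate block, 3 were called in stiff col minus soft col:rBM. With the block kept, a choice made after seeing the data, leaving out a library gave 0 to 4 members for stiff IPN minus soft IPN and 0 to 2 for stiff col minus stiff IPN, the gel's lone library being assumed to vary like those of the other gels. Between the trials 4 were called, and 2 to 5 when a library was left out, while NOTCH1 and HES4 had adjusted p of 0.00733 to 0.0852 and 0.0388 to 0.163 over all alternatives and JAG1 and HEY1 stayed at or under 0.0458. Beyond the fewer libraries of a left-out fit, the cause was not tested. Of 54 log2 differences of members, 30 kept their sign under every alternative and 24 changed sign, in each case when a library was left out. Their ranges over the left-out libraries were as follows. For stiff IPN minus soft IPN, JAG1 ranged from -0.47 to 0.54 and JAG2 from -0.084 to 0.18. For stiff col minus stiff IPN, NOTCH1 ranged from -0.76 to 0.18, NOTCH3 from -0.16 to 0.33, JAG1 from -0.65 to 0.83 and HES1 from -0.31 to 0.35. For stiff col minus soft col:rBM, NOTCH1 ranged from -0.71 to 0.23, NOTCH2 from -0.068 to 0.062, JAG1 from -0.66 to 0.82, HES4 from -0.45 to 0.26, NRARP from -0.79 to 0.70 and HES2, not a member, from -1.92 to 0.43. For soft col:rBM minus soft IPN, NOTCH2 ranged from -0.085 to 0.14, NOTCH3 from -0.92 to 0.43, JAG1 from -0.69 to 0.78, JAG2 from -0.21 to 0.15, HES4 from -0.63 to 0.077 and NRARP from -1.39 to 0.098. For the difference of the stiffness effects, NOTCH1 ranged from -0.31 to 0.62, NOTCH3 from -0.35 to 1.001, JAG1 from -0.70 to 0.78, HES1 from -0.16 to 0.50 and HEY1 from -0.55 to 0.81. Between the trials, NOTCH2 ranged from -0.19 to 0.028 and HES1 from -0.20 to 0.16.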
